A study of Mus musculus with 48 samples.

Results

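The 10 genes Chrna1, Chrnb1, Chrnd, Chrne, Chrng, Musk, Ncam1, Runx1, Hdac4 and Gadd45a of the neuromuscular junction and of the response to denervation were followed in mouse gastrocnemius muscle after perfluorooctane sulfonate (PFOS), a persistent fluorinated surfactant. They were taken by gene symbol from the deposited count table. Chrna1, Chrnb1, Chrnd, Chrne and Chrng encode subunits of the muscle acetylcholine receptor, and Musk, Ncam1, Runx1, Hdac4 and Gadd45a encode a synaptic receptor kinase, an adhesion molecule and regulators of the denervated fibre. All 10 were present among 54532 genes, and 9 were among the 15583 genes with enough counts for a test. Chrng fell below that filter, with 65 counts in all 48 libraries together.

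Males and females of the genotypes hCYP2B6-Tg and Cyp2b-null received oral gavage for 21 days, with PFOS doses of 0, 1 and 10 mg/kg/day, and each mouse gave 1 library. The hCYP2B6-Tg line carries the human cytochrome P450 gene CYP2B6 and the Cyp2b-null line lacks mouse Cyp2b genes. The labels give no age, no promoter of the transgene and no mouse with its own Cyp2b genes and without the transgene. The dose of 0 mg/kg/day had 17 mice, that of 1 had 16 and that of 10 had 15. Each combination of genotype, sex and dose held 4 mice, except 3 Cyp2b-null males at 10 mg/kg/day and 5 hCYP2B6-Tg males at 0 mg/kg/day. The 4 combinations of genotype and sex are called strata.

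At the junction, the nerve releases agrin, which through its receptor on the fibre activates the kinase MuSK. MuSK then gathers acetylcholine receptors under the nerve ending. The adult receptor is a pentamer of alpha, beta, delta and epsilon subunits, and the fetal form has gamma in place of epsilon. In innervated muscle the subunit genes are transcribed mainly by the nuclei beneath the synapse, and electrical activity keeps the rest of the fibre silent. After the nerve is cut, HDAC4 accumulates, myogenin rises, and Chrna1, Chrng, Chrnd, Musk, Ncam1, Runx1 and Gadd45a are transcribed along the whole fibre. In bulk muscle, fewer nuclei of a kind and less RNA per nucleus cannot be told apart.

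Depth was 11571142 to 19921061 counts per library, with a median of 14420691. Transcripts of the muscle fibre led the libraries: Myh4, the fast IIB myosin, averaged 44900 CPM (counts scaled to a common library size) at 10 and 68000 CPM at 0 mg/kg/day. The tissue label is gastrocnemius, while the extraction text of the labels names liver. Liver albumin was high in 1 library, from a Cyp2b-null male at 1 mg/kg/day with 27859 Alb counts. Another 5 libraries held 41 to 790 counts of Glycam1, a gene of lymph node vessels, and 4 of these 5 were at 10 mg/kg/day. Results were also computed without these 6 libraries. Library numbers in the labels rose with dose inside each stratum without overlap, so dose and handling cannot be told apart.

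The 10 genes covered a wide span of levels. Per kilobase of gene model, the mice at 0 mg/kg/day averaged 16.4 CPM for Chrnb1, 13.3 for Chrne and 12.99 for Gadd45a. A middle group held Chrna1 with 4.1, Musk with 3.82 and Hdac4 with 3.39 CPM per kilobase. Chrnd averaged 0.756, Ncam1 0.584, Runx1 0.124 and Chrng 0.0205 CPM per kilobase. Single mice at 0 mg/kg/day ranged from 11.8 to 22.5 CPM per kilobase for Chrnb1 and from 9.88 to 21.2 for Chrne, which overlap. Ranges of single mice also overlapped between Chrne and Gadd45a, among Chrna1, Musk and Hdac4, and between Chrnd and Ncam1. These ranges pool the sexes, between which Musk and Gadd45a differed, as given below. Differences between genes were not tested. The delta subunit was therefore counted at a small part of the level of the beta subunit, and the fetal gamma subunit was close to absent. Spread between mice of a group was smallest for Hdac4, with a median coefficient of variation of 11%, and widest for Runx1, with 43%.

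At 10 against 0 mg/kg/day, averaged over the strata, 4 of the 9 testable genes were higher and 2 were lower. Over all 15583 genes 47.5% passed the same test, 25% higher and 22.5% lower, so a change of a member was a common event in this comparison. Chrnb1, Runx1, Musk and Gadd45a were higher, Chrne and Hdac4 were lower, and Chrna1, Chrnd and Ncam1 did not pass. The median log2 fold change of the 9 genes was 0.18, beside 0.04 for all genes. The test was edgeR's quasi-likelihood test with Benjamini-Hochberg adjustment over all genes and a threshold of 0.05, and log2 fold changes are given with their standard error. Libraries were scaled by TMM. Without that scaling the median of all genes was 0.25 in place of 0.04, and 7519 genes were higher and 1647 lower in place of 3892 and 3511. The members then stood at 6 higher and 1 lower.

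**Figure D1:**
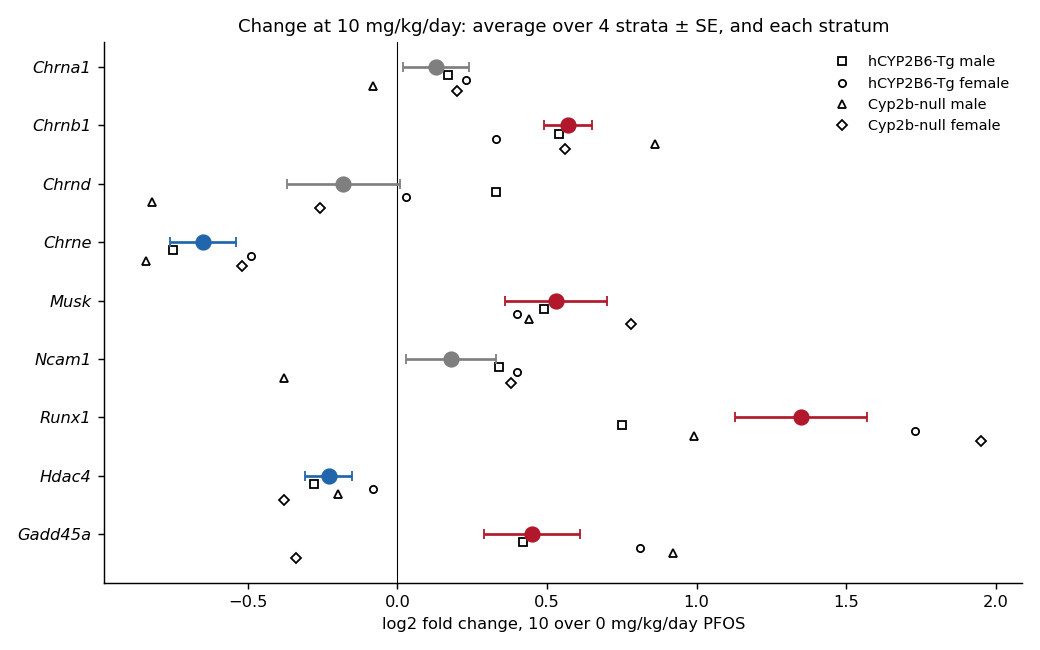
Log2 fold change of the 9 testable genes between 10 and 0 mg/kg/day PFOS; large filled circles are the average over strata with its standard error (red higher, blue lower, grey not past an adjusted p of 0.05), and small open symbols are the 4 strata. Chrnb1, Musk and Runx1 lay right of 0 and Chrne and Hdac4 left of 0 in all 4 strata, while Chrna1, Chrnd, Ncam1 and Gadd45a had strata on both sides.

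The receptor subunits moved apart. Chrnb1, the beta subunit that completes the receptor in both its fetal and adult form, ranged from 41.9 to 89.1 CPM with a median of 61.1 at 10 mg/kg/day, against 29.7 to 56.9 CPM with a median of 39.6 at 0 mg/kg/day. The ranges overlapped over all strata. Chrnb1 averaged 61.81 ± 11.7 CPM at 10 and 41.56 ± 7.59 CPM at 0 mg/kg/day (SD, n = 15 and 17), a log2 fold change of 0.57 ± 0.08 (adjusted p = 3.35e-07, edgeR). At 1 mg/kg/day the mean was 44.71 ± 7.34 CPM (SD, n = 16).

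In hCYP2B6-Tg males Chrnb1 had 61.1, 46.8, 67.2 and 41.9 CPM at 10 mg/kg/day, against 38.3, 29.7, 41.3, 39.6 and 38.2 CPM at 0 mg/kg/day. In hCYP2B6-Tg females the values were 55.1, 47.95, 60.5 and 59.3 CPM at 10, against 56.9, 37.2, 45.6 and 37.3 CPM at 0 mg/kg/day. Every treated male thus lay above every untreated male of that line, while among the females 1 untreated mouse lay within the treated range. Cyp2b-null males had 75.1, 68.0 and 68.5 CPM at 10, against 37.2, 45.0, 31.6 and 41.8 CPM at 0 mg/kg/day. Cyp2b-null females had 59.4, 89.1, 62.2 and 65.0 CPM at 10, against 37.5, 41.5, 50.8 and 56.9 CPM at 0 mg/kg/day. Neither Cyp2b-null stratum overlapped between the doses. The log2 fold changes were 0.54 ± 0.16 in hCYP2B6-Tg males, 0.33 ± 0.16 in hCYP2B6-Tg females, 0.86 ± 0.18 in Cyp2b-null males and 0.56 ± 0.16 in Cyp2b-null females, and hCYP2B6-Tg females did not pass (adjusted p = 0.132, edgeR). The call in hCYP2B6-Tg males was lost without the treated replicate 3, at 0.42 (adjusted p = 0.1), or the untreated replicate 2, at 0.46 (adjusted p = 0.0511, edgeR). That in Cyp2b-null females was lost without the treated replicate 2, at 0.41 (adjusted p = 0.0985), or the untreated replicate 1 or 2, at 0.47 and 0.51 (adjusted p = 0.0781 and 0.0703, edgeR). Without the untreated replicate 1, hCYP2B6-Tg females passed at 0.48 (adjusted p = 0.0445, edgeR).

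Chrne, the adult epsilon subunit, which innervated fibres transcribe under the synapse, went the other way. It ranged from 8.09 to 21.6 CPM with a median of 14.2 at 10 mg/kg/day, against 16.7 to 35.9 CPM with a median of 22.5 at 0 mg/kg/day. Chrne averaged 14.11 ± 3.21 CPM at 10 and 22.43 ± 4.83 CPM at 0 mg/kg/day (SD, n = 15 and 17), a log2 fold change of -0.65 ± 0.11 (adjusted p = 3.36e-06, edgeR). The mean at 1 mg/kg/day was 21.25 ± 4.29 CPM (SD, n = 16).

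In hCYP2B6-Tg males Chrne had 13.4, 15.3, 12.2 and 16.1 CPM at 10 mg/kg/day, against 16.7, 23.5, 21.2, 35.9 and 22.5 CPM at 0 mg/kg/day. In hCYP2B6-Tg females it had 14.2, 8.09, 13.2 and 15.6 CPM at 10, against 16.7, 18.1, 19.9 and 17.1 CPM at 0 mg/kg/day. In Cyp2b-null males it had 14.6, 12.6 and 15.6 CPM at 10, against 24.1, 28.5, 24.1 and 25.7 CPM at 0 mg/kg/day. The doses did not overlap in these 3 strata. Among Cyp2b-null females the values were 10.4, 21.6, 11.2 and 17.6 CPM at 10, against 19.1, 20.6, 23.1 and 24.5 CPM at 0 mg/kg/day, and 1 treated mouse lay inside the untreated range. The log2 fold change was -0.75 ± 0.20 in hCYP2B6-Tg males, -0.49 ± 0.21 in hCYP2B6-Tg females, -0.84 ± 0.23 in Cyp2b-null males and -0.52 ± 0.21 in Cyp2b-null females. Only the males passed (adjusted p = 0.00828 and 0.00897, edgeR), and the females had adjusted p = 0.0813 and 0.0928. These calls turned on single mice. Without the untreated replicate 4 the hCYP2B6-Tg males had -0.56 (adjusted p = 0.0536), and without the treated replicate 2 the Cyp2b-null males had -0.76 (adjusted p = 0.053, edgeR). Without the treated replicate 4 the hCYP2B6-Tg females passed at -0.60 (adjusted p = 0.0441), and without the treated replicate 2 so did the Cyp2b-null females at -0.74 (adjusted p = 0.0212, edgeR).

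Chrne shares 1043 bases with 4930544D05Rik, a protein-coding gene on the opposite strand, and the use of strand in counting is not given in the sources used here. That gene averaged 2.42 CPM at 10 and 4.13 CPM at 0 mg/kg/day, with a log2 fold change of -0.85 ± 0.16 (adjusted p = 4.3e-05, edgeR). Reads of the shared stretch cannot be assigned to either gene from these files.

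**Figure D2:**
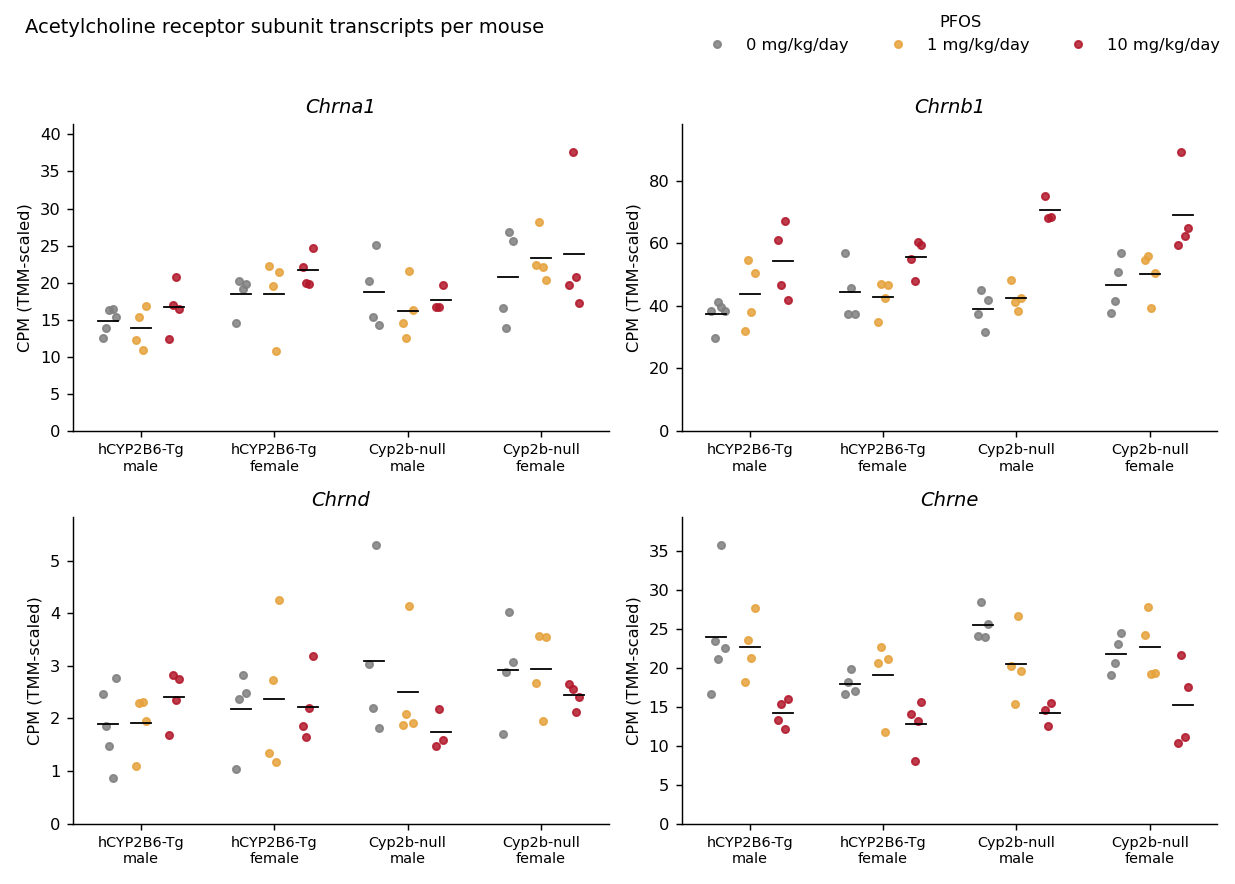
CPM on TMM-scaled library sizes of the 4 acetylcholine receptor subunits that passed the filter, in each mouse (points) with the group mean (line), by stratum and PFOS dose from 0 to 10 mg/kg/day. Chrnb1 sits high and Chrne low at 10 mg/kg/day. The ranges at 1 and 0 mg/kg/day overlap in every stratum, though some points at 1 lie outside the range at 0. Chrne in Cyp2b-null males was 15.37 to 26.65 CPM at 1 and 24.05 to 28.54 CPM at 0. Chrnb1 in hCYP2B6-Tg males was 31.8 to 54.62 CPM at 1 and 29.74 to 41.29 CPM at 0.

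Chrna1, the alpha subunit that binds acetylcholine, averaged 20.11 ± 5.65 CPM at 10 and 18 ± 4.41 CPM at 0 mg/kg/day (SD, n = 15 and 17). Its log2 fold change was 0.13 ± 0.11, with a 95% interval of -0.1 to 0.36 (adjusted p = 0.349, edgeR). The doses overlapped in all 4 strata. Chrnd, the delta subunit, averaged 2.235 ± 0.509 CPM at 10 and 2.484 ± 1.08 CPM at 0 mg/kg/day, with a log2 fold change of -0.18 ± 0.19 and an interval of -0.55 to 0.2 (adjusted p = 0.449, edgeR). Chrnd overlapped between the doses in every stratum as well, on 10 to 69 counts per library. Without TMM scaling Chrna1 passed the test, with a log2 fold change of 0.35 (adjusted p = 0.0127, edgeR), close to the 0.25 of the median gene on that scale.

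Chrng, the fetal gamma subunit that denervated fibres make again, had 20 counts in the 17 libraries at 0, 20 in the 16 at 1 and 25 in the 15 at 10 mg/kg/day. It had no count in 24 libraries. Of the 25 counts at 10 mg/kg/day, 16 came from 1 Cyp2b-null female, replicate 2, while the highest library at 0 mg/kg/day had 7. Without the low-count filter the log2 fold change was 0.27 ± 0.36 (adjusted p = 0.99, edgeR). A rise of Chrng was not detectable at this depth.

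The windows of 250 bases before the RefSeq transcription starts of 4 subunit genes are shown for the subunit that was higher, the one that was lower, and the alpha and fetal gamma subunits, which did not pass a test. They are written in the direction of transcription (RefSeq, GRCm38.p6), 8 of the 10 genes had a window, and capitals mark matches to CANNTG (the E-box bound by the MyoD family), to CAGCTG (an E-box within that pattern) and to CCGGAA (the core bound by GABP and other Ets factors), searched on both strands.
Chrnb1, chr11:69795938-69796187, minus strand: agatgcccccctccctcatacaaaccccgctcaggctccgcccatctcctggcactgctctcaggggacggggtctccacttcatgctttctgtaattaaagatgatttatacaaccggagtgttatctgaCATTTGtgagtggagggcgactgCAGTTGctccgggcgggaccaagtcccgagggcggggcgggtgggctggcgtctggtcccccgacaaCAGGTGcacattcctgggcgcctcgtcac
Chrne, chr11:70619195-70619444, minus strand: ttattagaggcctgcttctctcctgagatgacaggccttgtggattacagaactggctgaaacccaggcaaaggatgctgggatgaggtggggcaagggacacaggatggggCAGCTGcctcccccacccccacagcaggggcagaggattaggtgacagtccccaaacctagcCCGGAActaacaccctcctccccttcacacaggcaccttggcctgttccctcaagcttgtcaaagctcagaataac
Chrna1, chr2:73580339-73580588, minus strand: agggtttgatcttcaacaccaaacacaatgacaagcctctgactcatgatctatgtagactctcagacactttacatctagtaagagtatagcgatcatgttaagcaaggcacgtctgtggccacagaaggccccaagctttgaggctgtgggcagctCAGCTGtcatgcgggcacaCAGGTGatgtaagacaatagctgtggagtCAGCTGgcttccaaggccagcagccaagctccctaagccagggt
Chrng, chr1:87205561-87205810, plus strand: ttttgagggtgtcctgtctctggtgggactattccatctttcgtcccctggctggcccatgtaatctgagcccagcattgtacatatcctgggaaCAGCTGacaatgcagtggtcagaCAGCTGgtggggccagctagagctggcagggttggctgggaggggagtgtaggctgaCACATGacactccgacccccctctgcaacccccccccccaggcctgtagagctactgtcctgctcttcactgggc
Chrne held 1 CAGCTG and 1 CCGGAA. Chrnb1 held 3 CANNTG and neither CAGCTG nor CCGGAA. Chrna1 and Chrng each held 3 CANNTG, 2 of them CAGCTG. Of 32817 such mouse windows, 66.2% held CANNTG, 13.01% held CAGCTG and 12.02% held CCGGAA. A match describes letters and not a bound site.

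Within a mouse, the ratio of Chrnb1 to Chrne does not depend on how libraries are scaled. Per kilobase of gene model it was 3.02 ± 0.672 at 10 mg/kg/day, with a range of 1.74 to 3.96, against 1.29 ± 0.361 at 0 mg/kg/day, with a range of 0.738 to 2.27 (SD, n = 15 and 17). At 1 mg/kg/day it was 1.45 ± 0.339. In hCYP2B6-Tg males the ratio was 1.74 to 3.67 at 10 and 0.738 to 1.53 at 0 mg/kg/day, and in hCYP2B6-Tg females it was 2.54 to 3.96 at 10 and 1.37 to 2.27 at 0. In Cyp2b-null males it was 2.94 to 3.61 at 10 and 0.877 to 1.09 at 0 mg/kg/day, and in Cyp2b-null females it was 2.46 to 3.81 at 10 and 1.31 to 1.55 at 0. The doses of 10 and 0 mg/kg/day did not overlap in any stratum. At 1 mg/kg/day the ratio was 1.17 to 1.54 in hCYP2B6-Tg males and 1.12 to 2.4 in hCYP2B6-Tg females. In Cyp2b-null females it was 1.34 to 1.74. Cyp2b-null males had 1.58, 1.79, 0.958 and 1.44 at 1 mg/kg/day, mostly above their range at 0. Each range at 1 overlapped that at 0 mg/kg/day. The pair was chosen with its values known, so the ratio is a description with no test. Chrna1 over Chrne was 0.567 ± 0.162 at 10 and 0.319 ± 0.0877 at 0 mg/kg/day. Chrnb1 over Chrna1 was 5.54 ± 1.39 at 10 and 4.18 ± 1.08 at 0.

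**Figure D3:**
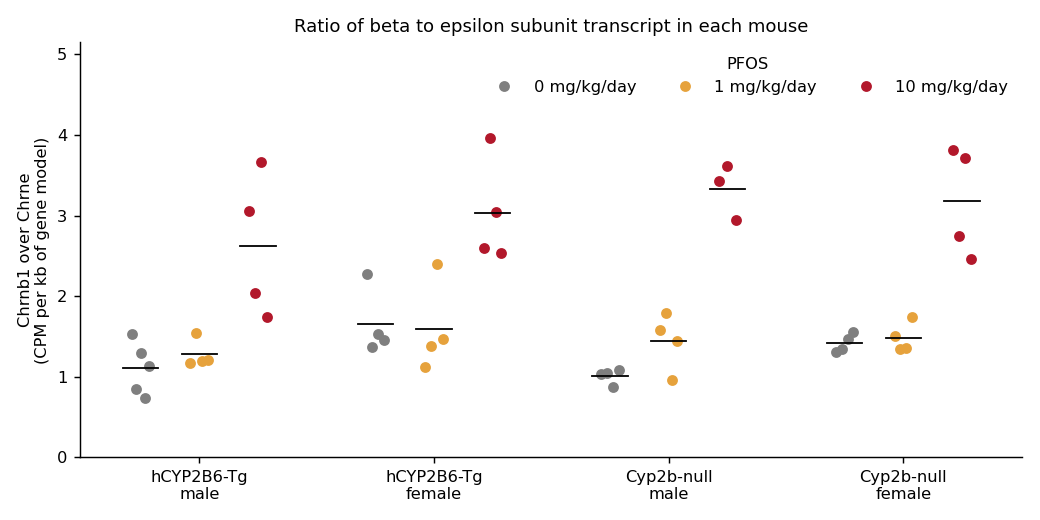
Ratio of Chrnb1 to Chrne, both in CPM per kilobase of gene model, in each mouse (points) with the group mean (line), by stratum and PFOS dose. At 10 mg/kg/day every mouse lies above every untreated mouse of its stratum.

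Runx1, a transcription factor that rises in denervated fibres and is also abundant in blood cells, changed most in size. It ranged from 1.68 to 9.02 CPM with a median of 2.97 at 10 mg/kg/day, against 0.686 to 3.08 CPM with a median of 1.46 at 0 mg/kg/day. Runx1 averaged 3.894 ± 2.27 CPM at 10 and 1.487 ± 0.63 CPM at 0 mg/kg/day (SD, n = 15 and 17), a log2 fold change of 1.35 ± 0.22 (adjusted p = 2.61e-06, edgeR). These means rest on 8 to 183 counts per library over all doses.

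hCYP2B6-Tg females had 4.76, 5.02, 8.78 and 2.68 CPM of Runx1 at 10 mg/kg/day, against 1.19, 0.899, 1.53 and 2.77 CPM at 0. Cyp2b-null females had 3.38, 2.63, 9.02 and 1.86 CPM at 10 mg/kg/day, against 0.951, 0.686, 1.53 and 1.24 CPM at 0. The log2 fold changes were 1.73 ± 0.43 for hCYP2B6-Tg and 1.95 ± 0.45 for Cyp2b-null, and both female strata passed (adjusted p = 0.00253 and 0.00304, edgeR). The males of hCYP2B6-Tg had 2.97, 2.31, 4.53 and 1.68 CPM at 10, against 1.55, 0.847, 1.85, 1.23 and 3.08 CPM at 0 mg/kg/day. Those of Cyp2b-null had 2.74, 2.39 and 3.65 CPM at 10, against 1.71, 1.46, 1.54 and 1.21 CPM at 0 mg/kg/day, without overlap. Neither male stratum passed, with log2 fold changes of 0.75 ± 0.41 and 0.99 ± 0.46. The difference between the sexes, male minus female, was -0.97 ± 0.44 and did not pass (unadjusted p = 0.0331, adjusted p = 0.472, edgeR).

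Leukocyte transcripts were read beside Runx1, and a link between them was not tested. Ptprc, the CD45 gene of all white blood cells, was 26.2 to 32 CPM in 3 libraries and 7.86 CPM in 1 more at 10 mg/kg/day, and these were the 4 libraries with Glycam1. The other 11 had 0.741 to 2.4 CPM. In 3 of the 4 their Runx1 was the highest of the group, with 9.02, 4.53 and 3.65 CPM. The other, an hCYP2B6-Tg female, had the most Ptprc at 10 mg/kg/day, 32 CPM. Its Runx1 was 4.76 CPM, in a group of 2.68 to 8.78 CPM. The library with Glycam1 at 0 mg/kg/day had 26.4 CPM of Ptprc, and its Runx1 of 2.77 CPM was likewise the highest of its group. The hCYP2B6-Tg female with 8.78 CPM of Runx1 had 1.25 CPM of Ptprc. Of 10 macrophage and leukocyte markers 6 were higher at 10 mg/kg/day, beside 25% of all genes. Among them were Ptprc at 1.58, Cd68 at 0.93, C1qa at 0.60 and Cd163 at 0.53 on the log2 scale. The summed level of this list was 41.1 to 141.1 CPM at 10 and 13.2 to 118.5 CPM at 0, with medians of 76.8 and 52.7 CPM. Of 11 tested lymphocyte and lymph node markers 9 were higher, among them Ltb at 3.30, Ms4a1 at 3.14, Cd3g at 3.10 and Cd79a at 2.84. Their summed level was 0.709 to 160.3 CPM at 10 and 1.19 to 89.4 CPM at 0, with medians of 2.93 and 2.45 CPM. Without the 6 libraries Runx1 had a log2 fold change of 1.18 ± 0.22 (adjusted p = 3.84e-05, edgeR), and in Cyp2b-null females it was 1.27 and no longer passed (adjusted p = 0.0683). Leaving out the female with 9.02 CPM alone gave 1.25 in that stratum (adjusted p = 0.0797).

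Musk, the receptor kinase that agrin activates, averaged 19.26 ± 11.1 CPM at 10 and 14.41 ± 8.33 CPM at 0 mg/kg/day (SD, n = 15 and 17), a log2 fold change of 0.53 ± 0.17 (adjusted p = 0.00807, edgeR). The change was positive in all 4 strata, between 0.40 and 0.78, and passed in none of them. In each stratum the doses overlapped. Single mice moved these values. Without the treated replicate 2 the hCYP2B6-Tg females had 0.00, without the treated replicate 3 they had 0.68, and without the treated replicate 1 the Cyp2b-null males had 0.15. Without the untreated replicate 4 the Cyp2b-null females passed at 1.29 (adjusted p = 0.0157, edgeR). The wide spread over all mice came with sex, as given below.

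Gadd45a, a growth arrest gene that ATF4 and HDAC4 induce in denervated or fasted muscle, averaged 32.57 ± 25.8 CPM at 10 and 22.91 ± 9.92 CPM at 0 mg/kg/day, a log2 fold change of 0.45 ± 0.16 (adjusted p = 0.0207, edgeR). In Cyp2b-null males it had 24.8, 28.2 and 27.4 CPM at 10, against 10.9, 15.2, 15.6 and 15.0 CPM at 0 mg/kg/day, without overlap. In Cyp2b-null females it had 17.8, 23.4, 18.6 and 34.4 CPM at 10, against 38.2, 24.6, 36.4 and 19.7 CPM at 0, so 2 treated mice lay below all untreated mice there and 2 lay among them. A single hCYP2B6-Tg female at 10 mg/kg/day, replicate 2, had 123.2 CPM, while the others of its group had 21.9 to 36.4 CPM. Without that mouse the average log2 fold change was 0.26 ± 0.13 and no longer passed (adjusted p = 0.098, edgeR).

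Hdac4, the class IIa deacetylase that accumulates in denervated fibres and represses Dach2, averaged 45.16 ± 7.66 CPM at 10 and 53.63 ± 8.03 CPM at 0 mg/kg/day, a log2 fold change of -0.23 ± 0.08 (adjusted p = 0.0141, edgeR). Its sign was negative in all 4 strata, none of which passed, though hCYP2B6-Tg males did without the treated replicate 1, at -0.42 (adjusted p = 0.0469, edgeR). The call was lost without the 6 libraries, at -0.13 (adjusted p = 0.226), without TMM scaling, at -0.02 (adjusted p = 0.858), and without replicate 3 of the Cyp2b-null males treated with 10 mg/kg/day, at -0.19 (adjusted p = 0.05). Ncam1, the adhesion molecule that denervated fibres show along their length, averaged 5.934 ± 2.6 CPM at 10 and 5.06 ± 1.09 CPM at 0 mg/kg/day. Its log2 fold change was 0.18 ± 0.15, with an interval of -0.12 to 0.49 (adjusted p = 0.326, edgeR). Without TMM scaling it passed at 0.4 (adjusted p = 0.0288).

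**Figure D4:**
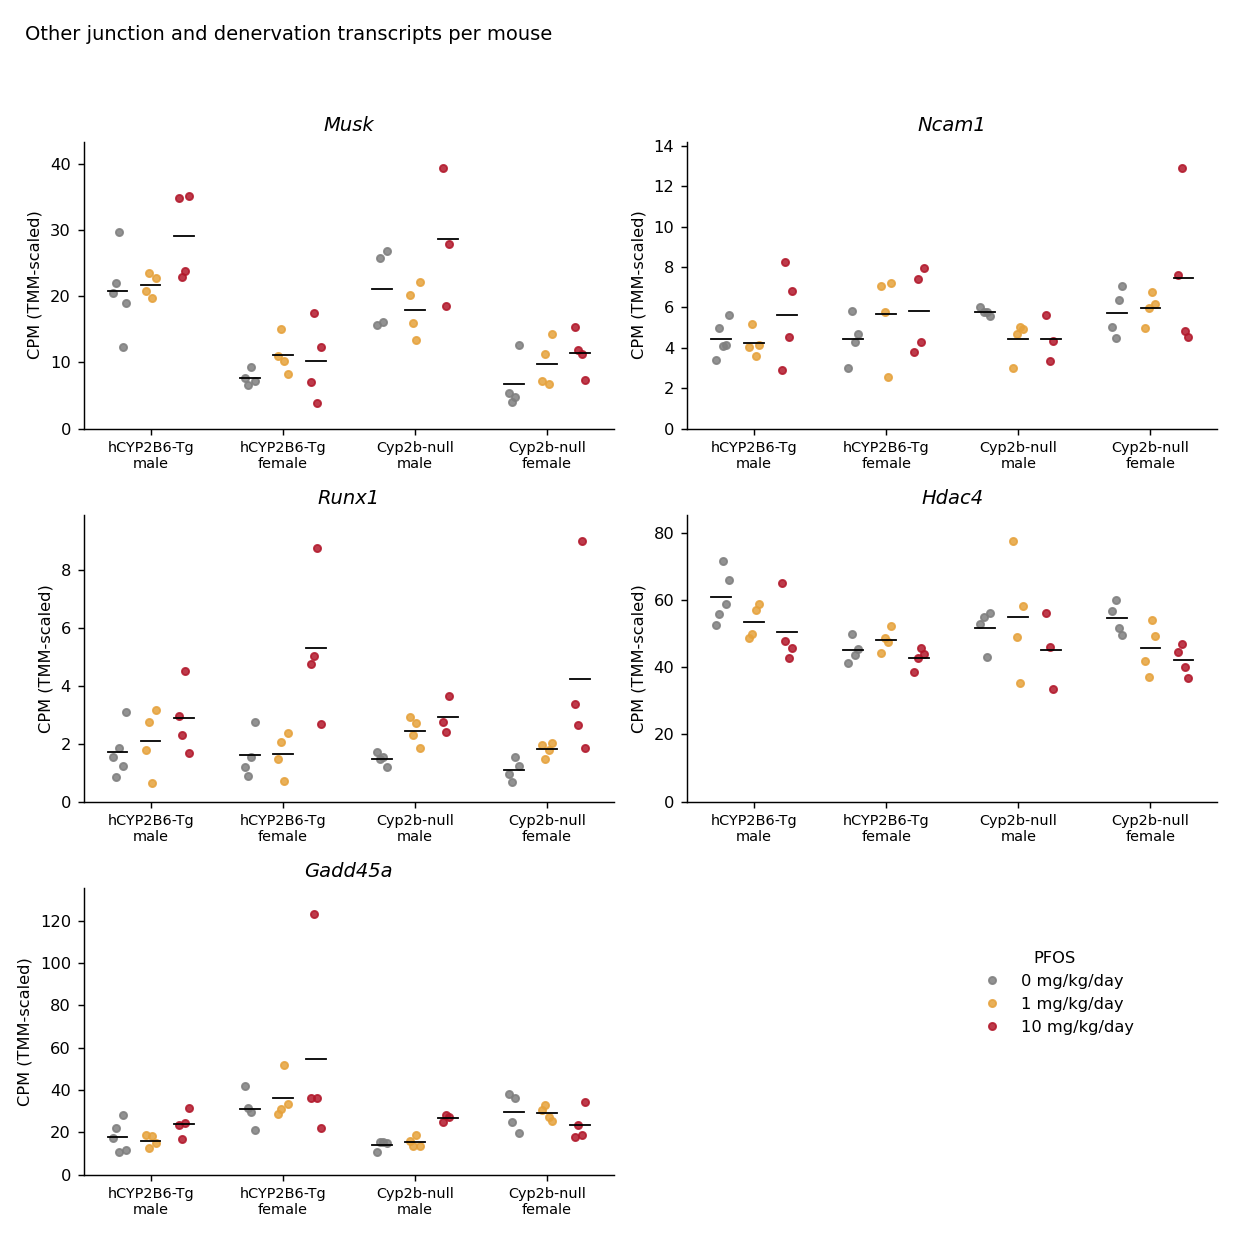
CPM on TMM-scaled library sizes of Musk, Ncam1, Runx1, Hdac4 and Gadd45a in each mouse (points) with the group mean (line), by stratum and PFOS dose from 0 to 10 mg/kg/day. Runx1 is raised at 10 mg/kg/day with high single mice among the females, Musk is higher in males than in females at every dose, and 1 hCYP2B6-Tg female stands out in Gadd45a at 123.2 CPM.

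At 1 against 0 mg/kg/day none of the 9 genes passed edgeR's test, and none had an unadjusted p under 0.05. Of all genes 0% passed there by edgeR, while 577 had an unadjusted p under 0.05, and DESeq2 also called 0 of the 9. Runx1 came closest, with 2.003 ± 0.714 CPM at 1 mg/kg/day and a log2 fold change of 0.45 ± 0.22 (unadjusted p = 0.0508, adjusted p = 1, edgeR). Chrnb1 had a log2 fold change of 0.10 ± 0.08 with an interval of -0.07 to 0.26, and Chrne one of -0.06 ± 0.10 with an interval of -0.27 to 0.15. The other 6 lay between -0.07 for Hdac4 and 0.23 for Musk. Within strata the 9 genes lay between -0.38 and 0.72, and none passed by edgeR. In Cyp2b-null males the doses of 1 and 0 mg/kg/day did not overlap for Runx1 and Ncam1, in opposite directions. Runx1 was 1.85 to 2.93 CPM at 1 and 1.21 to 1.71 CPM at 0. Ncam1 was 3.02 to 5.05 CPM at 1 and 5.59 to 6.02 CPM at 0. Chrng, without the low-count filter, had 0.70 ± 0.55 (adjusted p = 1, edgeR). In a direct comparison of 10 with 1 mg/kg/day 3 genes were higher and 1 was lower, beside 24.7% and 22.2% of all genes, 46.9% together. Chrnb1 was higher by 0.47 ± 0.08, Runx1 by 0.90 ± 0.22 and Gadd45a by 0.42 ± 0.17, and Chrne had -0.59 ± 0.11 on the log2 scale. The call of Gadd45a was lost when any 1 of 9 mice was left out, at 0.22 without the hCYP2B6-Tg female with 123.2 CPM (adjusted p = 0.163, edgeR) and at 0.36 to 0.41 without the others. The comparisons of 10 with 0 and of 10 with 1 share the mice at 10 mg/kg/day.

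Within strata 7 calls were made at 10 against 0 mg/kg/day, 1 in hCYP2B6-Tg females and 2 in each of the other strata. Over all genes the same test called 18.5% in hCYP2B6-Tg males, 27.7% in hCYP2B6-Tg females, 15.8% in Cyp2b-null males and 12.7% in Cyp2b-null females. Chrnb1 passed in 3 strata, Chrne in both male strata and Runx1 in both female strata. The tests of the difference itself, male minus female and hCYP2B6-Tg minus Cyp2b-null, called none of the 9 genes by edgeR or DESeq2. Of all genes, 0.128% and 0% passed. An unadjusted p under 0.05 for sex was found in 1 of the 9, Runx1, and for genotype in 0, beside 1490 and 1378 of all 15583 genes. For Chrnb1 the interval of the genotype difference was -0.61 to 0.06, and for Chrne that of the sex difference was -0.72 to 0.14, on the log2 scale.

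Musk and Gadd45a differed between the sexes. At 0 mg/kg/day 1 of the 9 genes was higher and 1 lower in males than in females, beside 4.73% and 2.86% of all genes, 7.59% together. Musk ranged from 12.3 to 29.7 CPM with a median of 20.4 in 9 males, against 3.98 to 12.55 CPM with a median of 6.93 in 8 females. The ranges overlapped through 1 Cyp2b-null female with 12.55 CPM. The log2 fold change of males over females was 1.54 ± 0.24 (adjusted p = 1.7e-05, edgeR), rank 76 among all genes. At 1 mg/kg/day it was 0.91 ± 0.23 (adjusted p = 0.0132) and at 10 mg/kg/day 1.42 ± 0.24 (adjusted p = 0.000144, edgeR), where 5.4% and 3.54% of all genes passed. The contrasts at 1 and 10 mg/kg/day were added after the values were seen. Musk averaged 28.91 ± 7.7 CPM in males and 10.82 ± 4.53 CPM in females at 10 mg/kg/day (SD, n = 7 and 8).

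Gadd45a was lower in males. It ranged from 10.7 to 28.2 CPM with a median of 15.2 in males, against 19.7 to 42.0 CPM with a median of 30.5 in females at 0 mg/kg/day, and the ranges overlapped. The log2 fold change of males over females was -0.93 ± 0.23 (adjusted p = 0.00675, edgeR). At 1 mg/kg/day the males, 12.4 to 18.8 CPM, lay below all females, 25.5 to 51.6 CPM, with a log2 fold change of -1.04 ± 0.23 (adjusted p = 0.00341). At 10 mg/kg/day it was -0.49 ± 0.24 and did not pass (adjusted p = 0.299).

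Some transcripts of Schwann cells and axons also differed between the sexes at 0 mg/kg/day. Of 14 tested markers 5 were lower in males, beside 2.86% of all genes, with a median log2 fold change of -1.07. The summed levels overlapped, at 44.6 to 413.6 CPM in males and 77.9 to 742 CPM in females. At 1 and 10 mg/kg/day 1 and 0 of the 14 were lower in males, with medians of -1.02 and -0.28. With the mean level of these markers as a covariate, Musk at 0 mg/kg/day kept a log2 fold change of males over females of 1.46 ± 0.27 (adjusted p = 0.000422, edgeR). Gadd45a kept one of -1.06 ± 0.26 (adjusted p = 0.0104). At 10 against 0 mg/kg/day Scn7a, a sodium channel gene of this list, was higher, at 1.42 on the log2 scale, and the motor axon genes Chat and Slc18a3 had 10 and 0 counts in all. The genotypes did not differ in any of the 9 genes at 0 mg/kg/day by edgeR or DESeq2, beside 0% of all genes; 1 of the 9, Chrnd, had an unadjusted p under 0.05, and 535 of all genes did. At 1 and 10 mg/kg/day the genotypes likewise gave 0 calls among the 9, beside 0% and 0.103% of all genes. An unadjusted p under 0.05 was found in 0 and 2 of the 9, beside 1045 and 1902 of all genes.

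The other genes of the junction were read from lists chosen with earlier results of these data known. In the pathway that clusters receptors, 4 of 21 tested genes were higher at 10 than at 0 mg/kg/day and 6 were lower, with a median log2 fold change of -0.01, beside 25% and 22.5% of all genes; the share that passed was thus near that of all genes. Agrn and Lrp4, the agrin signal and its receptor, had 0.02 ± 0.09 and -0.01 ± 0.10 and did not pass. Dok7, the cytoplasmic activator of MuSK, was lower at -0.34 ± 0.10, and Rapsn, the scaffold that anchors receptors, was higher at 0.19 ± 0.06. Utrn, the utrophin of the synaptic membrane, was higher at 0.44 ± 0.11, and Dtna, the alpha-dystrobrevin of the same complex, was lower at -0.44 ± 0.07. Pak1, a kinase, was lower at -0.86 ± 0.13, and Erbin, a scaffold, was higher at 0.67 ± 0.12. Dnaja3, a chaperone that binds MuSK, was lower at -0.29 ± 0.04. Dok7, Dnaja3, Dvl1 and Prkar1a lost their call without TMM scaling, where Dvl1 and Prkar1a turned to 0.02 and 0.08, and 12 genes were higher and 2 lower. Without the 6 libraries 2 were higher and 6 lower.

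In the list of synaptic basal lamina, esterases and endplate channels, 3 of 17 genes were higher and 8 lower, with a median of -0.16, beside the same 25% and 22.5% of all genes. Ache, the esterase that ends each signal, fell by 0.80 ± 0.14 on the log2 scale, to 26.3 CPM on average at 10, against 43.9 CPM at 0 mg/kg/day (adjusted p = 1.33e-05, edgeR). Bche, the related butyrylcholinesterase, was higher at 0.70 ± 0.19. Col4a1 and Hspg2, a collagen and a proteoglycan of the basal lamina, were lower at -0.61 ± 0.11 and -0.47 ± 0.11, and Lamb2, the laminin chain of the synaptic cleft, at -0.26 ± 0.06. Itga7, the muscle laminin receptor, was higher at 0.38 ± 0.07. Without TMM scaling 3 were higher and 2 lower, Lamb2 was at -0.04, and Itgb1 and Scn4a turned to 0.04 and 0.05. Without the 6 libraries 3 were higher and 5 lower. Among 13 tested genes of neuregulin signalling and synaptic transcription 1 was higher, Erbb2 at 0.35 ± 0.11, and 2 were lower, Prkca at -0.48 ± 0.08 and Camk2g at -0.20 ± 0.06, which turned to 0.01 without TMM scaling. Gabpa, the Ets factor of synaptic nuclei, had 0.00 ± 0.05. The median of that list was -0.07, beside 25% and 22.5% of all genes higher and lower.

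Another list held genes of the response to denervation other than the members, most of them known to rise after the nerve is cut and some, such as Dach2 and Hdac9, known to fall. Of its 34 tested genes 14 were higher and 4 lower, with a median of 0.23, beside 25% and 22.5% of all genes. The same counts of 14 and 4 were found without the 6 libraries. The higher ones included the ubiquitin ligases Fbxo32 (1.02 ± 0.18) and Trim63 (1.27 ± 0.22), the cell cycle inhibitor Cdkn1a (1.47 ± 0.19), the titin-associated Ankrd1 (2.57 ± 0.45), sarcolipin (Sln, 2.15 ± 0.39) and the metallothionein Mt1 (2.06 ± 0.28). Several of these are also known to rise in fasting and under glucocorticoids. The ligases varied widely between mice at 10 mg/kg/day, with 1280 ± 1110 CPM for Fbxo32 and 979 ± 1400 CPM for Trim63 (SD, n = 15). The Cyp2b-null females at that dose had 165.4 to 429 CPM and 168.3 to 231 CPM. All of them lay below the averages of all 17 mice at 0 mg/kg/day, 538 ± 126 and 308 ± 58.3 CPM (SD). Those averages pool both sexes and genotypes and are not those of untreated Cyp2b-null females. The median of the list in that stratum was 0.01. Averaged over strata, Myog, the myogenic factor that drives receptor genes after denervation, had 0.21 ± 0.17 and Myod1 0.04 ± 0.17. Dach2, the repressor of Myog under HDAC4, had -0.22 ± 0.28, and none of the 3 passed. Lower were Fgfbp1, a secreted carrier of fibroblast growth factors that helps maintain the junction, at -1.96 ± 0.17, Mef2c at -0.70 ± 0.10, Hdac9 at -0.65 ± 0.13 and the neonatal myosin Myh8 at -0.46 ± 0.10. None of the genes of these 4 lists passed at 1 against 0 mg/kg/day.

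**Figure D5:**
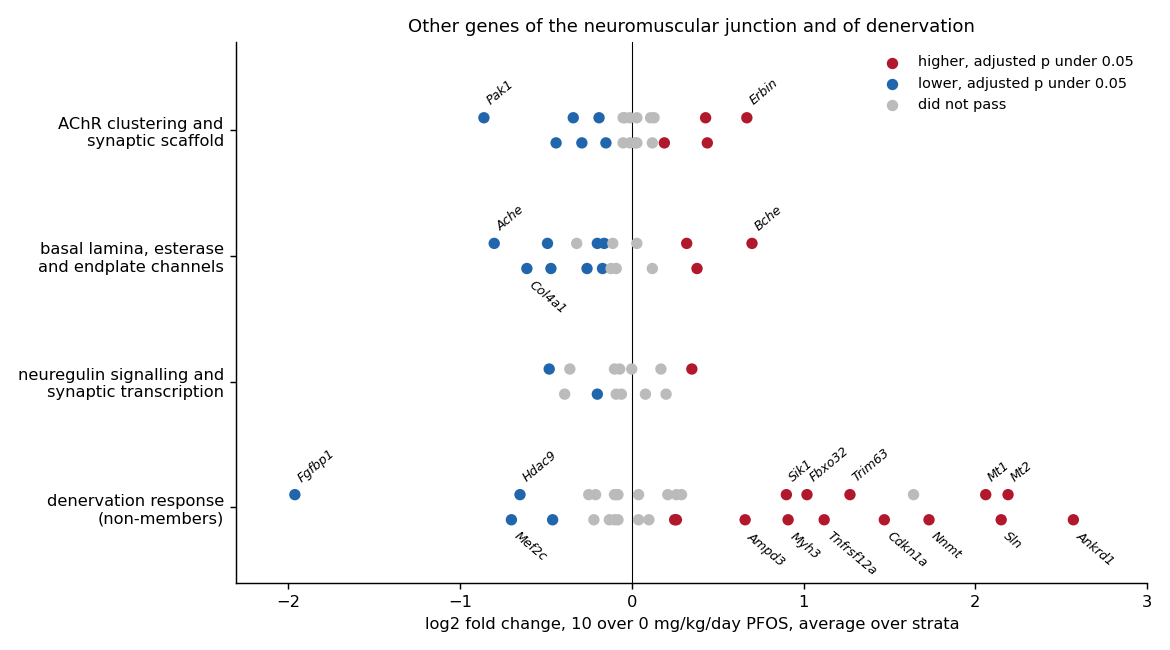
Log2 fold change between 10 and 0 mg/kg/day PFOS, averaged over strata, of the tested genes of 4 lists, 1 point per gene, with names for genes that passed and changed by over 0.6. The denervation list extends to the right with Ankrd1 at 2.57 and to the left with Fgfbp1 at -1.96, while the other 3 lists spread on both sides of 0.

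Markers of other cells were also read at 10 against 0 mg/kg/day, where 25% of all genes were higher and 22.5% lower, 47.5% together. The satellite cell, endothelial and liver lists did not exceed that share. Of 12 adipocyte markers 9 were higher, among them Retn at 3.14, Cfd at 3.14, Cidec at 2.85 and Pnpla2 at 0.83, with summed levels of 368.4 to 2715 CPM at 10 and 297.4 to 724 CPM at 0 mg/kg/day. Of 12 fibre genes 8 were lower, among them Casq1 at -1.54, Pvalb at -1.12, Acta1 at -1 and Myh4 at -0.58, and 1 was higher, with sums of 80860 to 159900 CPM at 10 and 144400 to 209200 CPM at 0. Of 10 satellite cell markers 1 was higher, Cdh15 at 0.71 ± 0.07, and 3 were lower, Calcr at -2.15, Pax7 at -0.65 ± 0.14 and Heyl at -0.55, with sums of 80.6 to 112.1 CPM at 10 and 68.4 to 107.3 CPM at 0. Of 10 fibroblast and tendon markers 2 were higher, among them Dcn at 0.74, and 6 lower, among them Col3a1 at -2.32, Col1a1 at -2.05 and Col1a2 at -1.69. Of 8 endothelial markers 1 was higher, Pecam1 at 0.25, and 2 were lower, Kdr at -0.45 and Egfl7 at -0.31. Of 5 tested liver markers 1 was higher, Cyp2e1 at 2.45, with averages of 61.3 CPM at 10 and 10.9 CPM at 0. The other 4 did not pass. Alb averaged 0.768 CPM at 10 and 1.1 CPM at 0, Apoa1 0.0144 and 0.176, Apob 0.0276 and 0.107, and Fgb 0.208 and 0.0472. The sums over all 9 listed liver markers, 3.37 to 179.7 CPM at 10 and 0.549 to 40.6 CPM at 0, thus mainly followed Cyp2e1. Apart from the libraries left out and the covariates, the part of these other cells in the members' changes was not tested. With the adipocyte markers as a covariate, Chrnb1 had 0.68 ± 0.10, Chrne -0.56 ± 0.13, Runx1 1.04 ± 0.24, Musk 0.67 ± 0.19 and Gadd45a 0.76 ± 0.17, all past the threshold by edgeR, and Hdac4 had -0.17 ± 0.09 and did not pass (adjusted p = 0.159).

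For the 3 members with the smallest p at 10 against 0 mg/kg/day, the genes with the most similar profile over the 12 group means were named by the mean absolute difference of centred log2 CPM. Chrnb1 was most like the ribosomal protein genes Rpl13, Rpl17 and Rpl32, at 0.076, 0.079 and 0.081, over a range of 0.92 of its own; such genes share sequence with many copies, so their counts are uncertain. Chrne was most like Zfp422-ps, Ptgr2 and Snrpn, at 0.082, 0.083 and 0.088 over a range of 1.03. Runx1 was most like Fah, Rarres2 and Ifrd1, at 0.144, 0.191 and 0.201 over a range of 2.07.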

How the data were processed

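Messenger RNA of gastrocnemius was sequenced in 48 mice. Raw counts per gene, with coordinates, are what the authors deposited. The submitters' processing notes name HISAT2 and GRCm39 and give no version. How reads were assigned to genes, and whether strand was used, is not given in the sources used here. Gene coordinates in the table are those of GRCm38: 53585 of 54495 gene identifiers shared with GENCODE vM21 (98.3%) agree in start and end, all 10 members included. All 48 columns were matched to samples by name. The 73 pairs of mice within groups differed by at least 7.85 chi-square per degree of freedom, so no library was taken as a copy.

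Genes were filtered with filterByExpr and libraries scaled by TMM in edgeR 4.0.16 (R 4.3.3), and the deposited counts were fitted with 1 coefficient per group and 36 residual degrees of freedom. Contrasts were tested with glmQLFTest, two-sided, with Benjamini-Hochberg adjustment over 15583 genes and a threshold of 0.05. Averages weight the 4 strata equally. Levels are CPM on TMM-scaled library sizes; intervals are 95%. The scripts were tested on simulated counts. The replicate numbers of the labels are not stated to pair mice, and p-values rest on the variation among mice of a group.

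The members and the gene lists were chosen with earlier results of these data known. The members were read in every contrast, Chrng by its counts and an unfiltered fit; those contrasts in which nothing passed are given by counts, ranges or examples. From each list up to 4 genes with the smallest p among those that passed at 10 against 0 mg/kg/day are named (1 is not reported here), beside core genes of the pathway (Agrn, Lrp4, Dok7, Rapsn, Utrn, Bche, Lamb2, Itga7, Gabpa, Fbxo32, Trim63, Ankrd1, Sln, Myog, Myod1, Dach2, Hdac9 and Myh8) and genes that a setting turned (Dvl1, Prkar1a, Itgb1 and Scn4a), all chosen after their values were seen. For the 3 members with the smallest p, the 3 genes with a symbol, a mean log2 CPM of at least 1 and the most similar group profile are named. Alternatives were DESeq2 size factors, unscaled totals, library sizes without mitochondrial and the 20 most abundant genes, no filter, a stricter filter (CPM of 1 in 16 libraries), DESeq2 1.42.0, limma 3.58.1 voom with quality weights, the replicate block, marker covariates, and leaving out 6 libraries or each mouse.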

Additional observations from a re-analysis of the deposited data

Results flagged for a closer look

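Within groups of 4 or 5 mice, the gap of the highest or lowest mouse to its neighbour was set against the range of the group for the 9 testable genes. Of 99 such groups 6 held a mouse apart from the others, and chance alone marks about 1 group in 20. Chrna1 had 37.63 CPM in replicate 2 of the Cyp2b-null females on 10 mg/kg/day, where the others had 17.3 to 20.8 CPM. Chrnb1 was 29.74 CPM in replicate 2 of the hCYP2B6-Tg males on 0 mg/kg/day, below 38.2 to 41.3 CPM in the others. Chrnd reached 4.14 CPM in replicate 3 of the Cyp2b-null males on 1 mg/kg/day, above 1.87 to 2.09 CPM. Musk was 12.55 CPM in replicate 4 of the Cyp2b-null females on 0 mg/kg/day, above 3.98 to 5.3 CPM, and this was the female that overlapped the males. Gadd45a was 123.2 CPM in replicate 2 of the hCYP2B6-Tg females on 10 mg/kg/day, above 21.9 to 36.4 CPM, and 10.9 CPM in replicate 1 of the Cyp2b-null males on 0 mg/kg/day, below 15 to 15.6 CPM.

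Chrng, which was below the filter, had 16 counts in replicate 2 of the Cyp2b-null females on 10 mg/kg/day and at most 7 in any library at 0 mg/kg/day. This is the mouse that stood apart in Chrna1. Of all 48 libraries it was also the highest in Chrnb1 with 89.1 CPM, in Ncam1 with 12.9 CPM, in Myog with 17 CPM and in Nes with 61.65 CPM. It was the lowest of the 48 in Fbxo32 with 165.4 CPM, in Trim63 with 168.3 CPM and in Gadd45g with 12.97 CPM. Its Runx1 was 2.63 CPM. Of the 35 listed denervation genes it was the highest of its 4 group members in 7 and the lowest in 5. Neither count was above an even share among 4 mice. The list mixes genes known to rise and genes known to fall after denervation, so these counts do not measure a response to it.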

How the results depend on the processing

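No call of a member reversed under any setting tried. Averaged over strata, 6 members were called at 10 against 0 mg/kg/day and 5 to 7 under the alternatives; at 1 against 0 mg/kg/day it was 0 under every one. At 10 against 1 mg/kg/day the count was 4, and 7 (6 higher, 1 lower) on unscaled library totals. Within strata 7 calls were made (5 higher, 2 lower), 8 with the stricter filter, 9 with DESeq2 and with limma voom, 10 (9 higher, 1 lower) on unscaled library totals, and 4 (3 higher, 1 lower) without the 6 libraries with liver or lymph node transcripts. With each mouse left out in turn the counts were 5 to 6 at 10 against 0, 0 to 0 at 1 against 0, 3 to 5 at 10 against 1, 6 to 10 within strata, 2 to 2 for the sexes at 0, 3 to 4 for the sexes at 1 and 10, and 0 to 0 for the sex and genotype differences and the genotypes at each dose. Over all genes the calls were 3892 higher and 3511 lower, and on unscaled library totals 7519 higher and 1647 lower.

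Chrnb1, Chrne, Runx1 and Musk kept their calls at 10 against 0 in all settings, and Hdac4 and Gadd45a lost theirs in those named above. Within strata, the calls of Chrnb1 in Cyp2b-null females and in hCYP2B6-Tg males, of Chrne in both male strata and of Runx1 in Cyp2b-null females were each lost when 1 mouse was left out. Of 31 pairs of mice with the same replicate number 4 had deviations correlated over 0.1, with a range of -0.24 to 0.208. Pairs with different numbers were not compared, so these values do not decide whether mice were paired. With the replicate block 6 members were called at 10 against 0 mg/kg/day. Counts under 10 per library, as for Chrng and the lowest library of Runx1, limit what can be said of them.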
